A study of Mus musculus with 6 samples.

Results

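The genes of the interleukin-1 (IL-1) family and of the inflammasome were followed in bone marrow-derived macrophages with and without a knockout of Dhps. The 10 genes were chosen by name: the ligands and antagonists Il1a, Il1b, Il1rn, Il18 and Il18bp, and the inflammasome genes Nlrp3, Casp1, Casp4, Pycard and Gsdmd. All 10 were found among the 10551 genes of the deposited count table. The cells came from C57BL/6J mice, with 3 libraries labelled control and 3 labelled Dhps_delta_Myel, a knockout limited to macrophages. Dhps encodes deoxyhypusine synthase, the first of the enzymes that turn a lysine of eIF5A, a translation factor, into hypusine, and the series' title concerns the enzyme and a pro-inflammatory phenotype. The labels give no stimulus, Cre driver, age or allele, nor whether the 3 libraries of a group are separate animals or cultures, so p-values cover the spread between libraries alone, which may be technical.

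Interleukin-1 alpha and interleukin-1 beta bind the same receptor, and the receptor antagonist encoded by Il1rn occupies it without signalling. Interleukin-18 has its own receptor and is bound in the medium by the protein encoded by Il18bp. The beta form and interleukin-18 are made as precursors that must be cut before they act, which in macrophages is the work of the inflammasome: the sensor NLRP3 recruits the adaptor ASC, encoded by Pycard, which activates caspase-1. The caspase encoded by Casp4 responds to lipopolysaccharide inside the cell, and both caspases can cut gasdermin D, encoded by Gsdmd, whose fragments open pores in the cell membrane. Counts of RNA show the transcripts of these parts. They give neither the amount of protein nor whether it was cut.

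In mm10, 4 of the members form neighbouring pairs. Il1a (129299610 to 129309972, 7 exons) and Il1b (129364580 to 129371120, 7 exons) lie on the minus strand of chromosome 2, with 54607 bases between them. Il1rn lies far from them on the same chromosome (24336860 to 24351491, 6 exons). Casp1 (5298517 to 5307281, 10 exons) and Casp4 (5308849 to 5336791, 9 exons) follow each other on the plus strand of chromosome 9, 1567 bases apart, and Il18 lies further along that chromosome (50565368 to 50581837, 6 exons). Il18bp (102015077 to 102018155, 7 exons) and Pycard (127991373 to 127993867, 3 exons) lie on the minus strand of chromosome 7, Nlrp3 on chromosome 11 (59542686 to 59566956, 10 exons) and Gsdmd on chromosome 15 (75862339 to 75867404, 11 exons).

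The 250 bases before the annotated start of 4 members are shown, because these genes form the neighbouring pairs and the members of the Il1a and Il1b pair were the most abundant measured. The sequences are from RefSeq (GRCm38.p6), 5′ to 3′ on the gene's own strand. Capitals mark the longest run shared by the Il1a and Il1b windows and, in Casp4, matches to the kappa-B consensus, the binding pattern of NF-kB. The Casp1 window holds no capitals.
Il1a promoter, chr2:129309973-129310222, minus strand: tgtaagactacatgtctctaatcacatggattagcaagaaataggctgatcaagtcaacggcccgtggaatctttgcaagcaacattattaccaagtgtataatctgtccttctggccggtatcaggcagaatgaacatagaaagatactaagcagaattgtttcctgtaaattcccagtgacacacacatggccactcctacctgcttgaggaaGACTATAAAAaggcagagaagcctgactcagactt
Il1b promoter, chr2:129371140-129371389, minus strand: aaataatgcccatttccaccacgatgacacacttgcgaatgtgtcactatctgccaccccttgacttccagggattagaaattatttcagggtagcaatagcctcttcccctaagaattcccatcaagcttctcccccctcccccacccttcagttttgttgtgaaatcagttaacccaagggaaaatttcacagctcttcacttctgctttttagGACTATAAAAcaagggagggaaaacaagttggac
Casp1 promoter, chr9:5298267-5298516, plus strand: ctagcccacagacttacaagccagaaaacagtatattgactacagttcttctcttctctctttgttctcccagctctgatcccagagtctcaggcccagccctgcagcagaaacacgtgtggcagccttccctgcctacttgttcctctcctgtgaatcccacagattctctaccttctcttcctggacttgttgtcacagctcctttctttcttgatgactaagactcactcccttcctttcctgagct
Casp4 promoter, chr9:5308599-5308848, plus strand: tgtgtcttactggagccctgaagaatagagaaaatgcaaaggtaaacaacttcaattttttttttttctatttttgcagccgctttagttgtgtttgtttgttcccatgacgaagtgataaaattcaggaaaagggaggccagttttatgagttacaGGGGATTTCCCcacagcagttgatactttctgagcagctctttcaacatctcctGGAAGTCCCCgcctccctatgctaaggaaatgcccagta

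Il1a and Il1b shared the run GACTATAAAA of 10 bases, which holds a TATA box and begins 35 bases before the start in Il1a and 34 bases before it in Il1b. The same run occurred in 9 of 32851 RefSeq windows of this length (0.0274%), searched on the gene's own strand only. These 9 include the Il1a and Il1b windows from which the run was picked, so the share is no test of the run. A table entry was found for 9 of the 10 members, Gsdmd being the exception, and the annotated start was that of the deposited gene model for 6 of them. For Il18 the annotated start lay 10668 bases before the first base of the deposited model. For the patterns that follow, both strands of the windows were searched. The TATA box TATAAA was matched in 3 of the 9 windows (Il1a, Il1b and Il18) against 12.4% of all windows, GAGGAA, a pattern of the macrophage factor PU.1, in 4 (Il1a, Nlrp3, Casp1 and Pycard) against 23.3%, and the kappa-B consensus in 1 (Casp4) against 7.25%. In Casp4 the matches overlap at the first capital run, and a further one lies 39 to 30 bases before the start. TGANTCA, a pattern of AP-1, was matched in 2 windows (Il1a and Il1rn) against 6.75%, and TTGCNNAA, a pattern of C/EBP factors, in 2 (Il18bp and Pycard) against 9.56%. The PU.1 match of Il1a lies 41 to 36 bases before the start and its TATA box 32 to 27 bases before it, with no overlap. Each match is a description of letters and not of a bound site.

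The libraries held between 11648710 and 16224818 counts over all genes. Dhps had 24.1, 20.9 and 23.4 CPM (counts per 1000000, scaled by the trimmed mean of M values) for control and 13.2, 13.6 and 18.3 CPM for knockout, which did not pass (log2 fold change -0.59, adjusted p = 0.214 in edgeR's quasi-likelihood test). All 7 listed macrophage markers were measured, and Lyz2 was the 1 that fell (log2 fold change -1.04, adjusted p = 7.2e-05). Fcgr1 (-0.33, edgeR adjusted p = 0.503) and Adgre1 (-0.18, adjusted p = 0.802) did not pass, though all their knockout values lay below all control values. Csf1r, Mertk, Itgam and Cd68 did not pass either, and their groups overlapped. Markers of neutrophils and their precursors, cells that can carry Il1b and Il1rn transcripts of their own, moved with genotype. Their summed level over 12 measured genes of 15 was 844 to 1167 CPM in control and 1349 to 1587 CPM in knockout libraries, and 5 of the 12 rose. The largest part of that sum was Mmp9, with a mean of 530.65 CPM for control and 658.5 for knockout. Its groups overlapped, and it did not pass (edgeR adjusted p = 0.672). S100a9, the next largest, was among the 5 that rose (means 194.8 and 350.51 CPM). The others that rose were Ngp (log2 fold change 1.24, edgeR adjusted p = 1.5e-04), S100a8 (0.95, 4.3e-04), Lcn2 (0.87, 0.0026) and Ltf (0.96, 0.0080). Over all genes 0.104% were called in either direction. Mmp8 (log2 fold change -0.020), Csf3r (0.19) and Elane (0.38) overlapped too and did not pass. Mpo, Prtn3 and Camp did not pass either, though all their knockout values lay above all control values. Ly6g, Cxcr2 and Ctsg of the neutrophil list were not rows of the table. The summed level of 8 monocyte markers was 159.9 to 249.7 CPM in control and 194.8 to 308.0 CPM in knockout libraries. Chil3, whose groups overlapped, was its largest part (means 126.23 and 151.46 CPM). Log2 fold changes were above 0 for 7 of the 8 (median 0.573), and none passed. At an unadjusted p under 0.05 in edgeR's test there were 5, against 6.48% of all genes. For Plac8, Hp and Spn all knockout values lay above all control values, as in either direction for 11.2% of all genes. The part of neutrophils, their precursors and monocytes in the values below was not tested. In bulk libraries fewer cells of a type and less RNA per cell cannot be told apart.

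None of the 10 members rose or fell in the knockout libraries. Over all genes 11 of 10551 were called at an adjusted p under 0.05 (0.104%), and 0 of 10 members is near that share. DESeq2 and limma-voom also called 0 of the 10. At an unadjusted p under 0.05 there was 1 member, Il18, against 684 of all genes (6.48%). It was also the 1 member whose groups did not overlap, against 1180 of all genes (11.2%). Log2 fold changes were below 0 for 8 members and above 0 for 2, with a median of -0.058. Over all genes 51.3% were below 0 and the median was -0.0044. The 95% interval of each member lay within 1.5-fold either way, as had 7588 of all genes (71.9%).

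**Figure D1:**
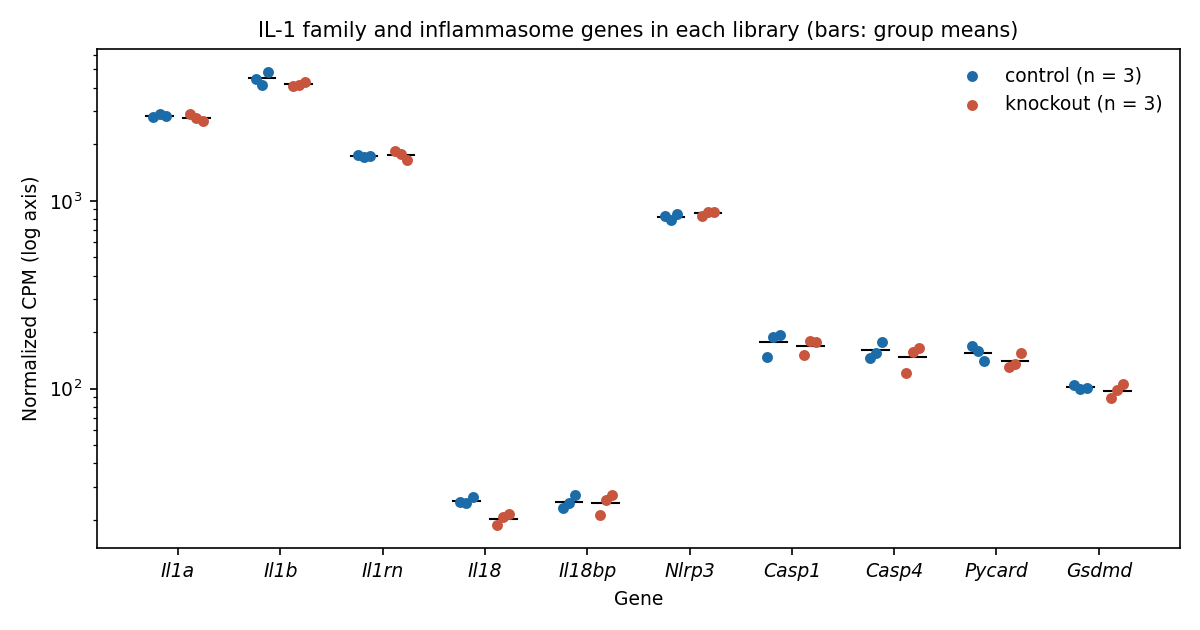
Normalized CPM of the 10 members on a log axis, 1 point per library (control blue, knockout red, n = 3 each) with a bar at each group mean. Il18 is the 1 gene whose groups do not overlap, at 18.8 to 21.5 CPM in knockout against 24.6 to 26.4 CPM in control libraries. CPM values are not comparable between genes of different length.

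Il1b, the ligand that the inflammasome releases, was measured at 4466, 4130.3 and 4853 CPM in control libraries and at 4078, 4155 and 4307.5 CPM in knockout libraries. The highest and second highest values were control libraries, and the lowest was a knockout library, with the groups overlapping between 4130.3 and 4307.5 CPM. The log2 fold change was -0.10 (95% interval -0.29 to 0.086, adjusted p = 0.910 in edgeR's quasi-likelihood test).

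Il1a, the sister ligand that is active without being cut, was measured at 2778.5, 2898 and 2828 CPM in control libraries and at 2907, 2758 and 2647 CPM in knockout libraries. The knockout libraries held both the highest and the lowest value, so the groups overlapped fully. The log2 fold change was -0.033 (95% interval -0.21 to 0.14, edgeR adjusted p = 0.986). The deposited exons of Il1a share 222 of 1974 bases with Gm14023, annotated on the opposite strand, and whether counting used strand is not given in the sources used here. If strand was not used, reads from that stretch cannot be told apart between the 2 genes.

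Il1rn, the receptor antagonist, was measured at 1753, 1705 and 1739.8 CPM in control and at 1852.5, 1764 and 1656 CPM in knockout libraries. Control libraries differed little (coefficient of variation 1.44%, against 5.60% in knockout), and the knockout values lay on both sides of them. The log2 fold change was 0.021 (95% interval -0.16 to 0.20, edgeR adjusted p = 0.991). The ratio of antagonist to Il1b was therefore compared within each library, where size factors cancel. On the log2 scale it was -1.35, -1.28 and -1.48 in control and -1.14, -1.24 and -1.38 in knockout libraries. The difference of 0.12 was within the spread of the libraries (exact permutation test, two-sided, p = 0.30, adjusted over 6 ratios 0.60). With 3 libraries against 3 the smallest p that this test allows is 0.10.

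Il18 was measured at 25.1, 24.6 and 26.4 CPM in control libraries and at 18.8, 20.8 and 21.5 CPM in knockout libraries. All 3 knockout values were under the lowest control value. The mean went from 25.4 ± 0.947 to 20.4 ± 1.42 CPM (SD, n = 3 each), which is 0.803-fold. On the log2 scale the change was -0.32, with an SE of 0.11 and a 95% interval of -0.55 to -0.078. The difference did not pass over all genes (edgeR adjusted p = 0.588, unadjusted 0.012), and its adjusted p ranged from 0.349 to 0.926 over the alternatives. It was the least deeply counted member, with 268 to 383 reads per library. Counting error alone gives a coefficient of variation of 5.58% at that depth, against an observed 3.73% in control and 6.96% in knockout libraries.

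Il18bp, which encodes the binding protein that holds interleukin-18 inactive, was measured at 23.1, 24.6 and 27.2 CPM in control and at 21.3, 25.6 and 27.1 CPM in knockout libraries. The groups overlapped across almost their whole range, and the log2 fold change was -0.018 (95% interval -0.28 to 0.24, edgeR adjusted p = 0.993). The log2 ratio of Il18bp to Il18 was -0.12, 0 and 0.042 in control libraries and 0.18, 0.30 and 0.33 in knockout libraries. All knockout ratios lay above all control ratios. Its mean was -0.0245 ± 0.0816 in control and 0.271 ± 0.0811 in knockout libraries (SD, n = 3 each). The difference of 0.295 gave p = 0.10 in the exact two-sided permutation test, the smallest p possible, and 0.60 adjusted over the 6 ratios. The ratio shares its Il18 values with the comparison above and is no separate evidence.

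Nlrp3, the sensor, was measured at 829, 788 and 848 CPM in control and at 830.4, 875 and 867 CPM in knockout libraries. It was 1 of the 2 members with a higher mean in knockout libraries, though the lowest knockout library lay below the highest control library. The log2 fold change was 0.062 (95% interval -0.11 to 0.23, edgeR adjusted p = 0.956). Pycard, the adaptor, was measured at 168, 159.6 and 139.8 CPM in control and at 129.7, 136 and 155 CPM in knockout libraries. Control library 3 lay below knockout library 3, so these groups overlapped too, and the log2 fold change was -0.15 (95% interval -0.36 to 0.056, edgeR adjusted p = 0.869). Of the deposited exonic bases of Pycard, 485 of 2135 are shared with Gm45205 on the opposite strand, with the same limit as for Il1a. The log2 ratio of sensor to adaptor was 2.30, 2.30 and 2.60 in control and 2.68, 2.69 and 2.48 in knockout libraries (difference 0.21, exact permutation p = 0.20, adjusted 0.60).

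Casp1, the caspase that cuts the beta form and interleukin-18, was measured at 147, 188 and 194 CPM in control and at 151, 180.1 and 177 CPM in knockout libraries. In each group library 1 was the lowest, and the groups overlapped (log2 fold change -0.058, 95% interval -0.29 to 0.17, edgeR adjusted p = 0.976). Casp4 was measured at 146, 156 and 178 CPM in control and at 121, 156 and 166 CPM in knockout libraries. Knockout library 1 was again the lowest, while the other two knockout libraries lay inside the control range (log2 fold change -0.11, 95% interval -0.35 to 0.13, edgeR adjusted p = 0.929). Transcripts of the neighbouring Casp1 and Casp4 share no run of 50 bases in the GENCODE transcripts of this build. The log2 ratio of Casp4 to Casp1 ranged from -0.27 to -0.0063 in control and from -0.32 to -0.098 in knockout libraries (difference -0.071, exact permutation p = 0.50, adjusted 0.72).

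Gsdmd, the pore-forming substrate of both caspases, was measured at 105, 100.03 and 100.4 CPM in control and at 88.9, 98.9 and 106 CPM in knockout libraries. The knockout libraries enclosed the control range on both sides, and the log2 fold change was -0.058 (95% interval -0.25 to 0.14, edgeR adjusted p = 0.968). The log2 ratio of Gsdmd to Casp1 had a mean of -0.78 ± 0.26 in control and -0.79 ± 0.063 in knockout libraries (SD, n = 3 each, exact permutation p = 1). The remaining ratio, Il1a to Il1b, differed by 0.065 (means -0.66 and -0.59, exact permutation p = 0.60, adjusted 0.72).

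**Figure D2:**
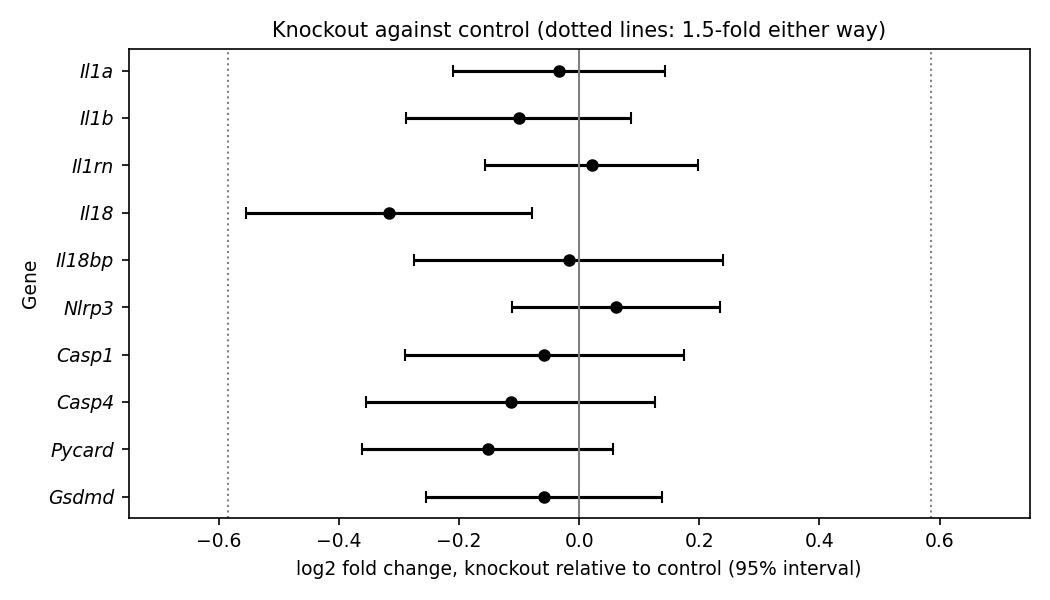
Log2 fold change of each member, knockout relative to control, as a point with its 95% interval from edgeR's quasi-likelihood fit (n = 3 libraries each). All 10 intervals lie inside the dotted lines at 1.5-fold, and the interval of Il18 is the 1 that does not include 0.

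**Figure D3:**
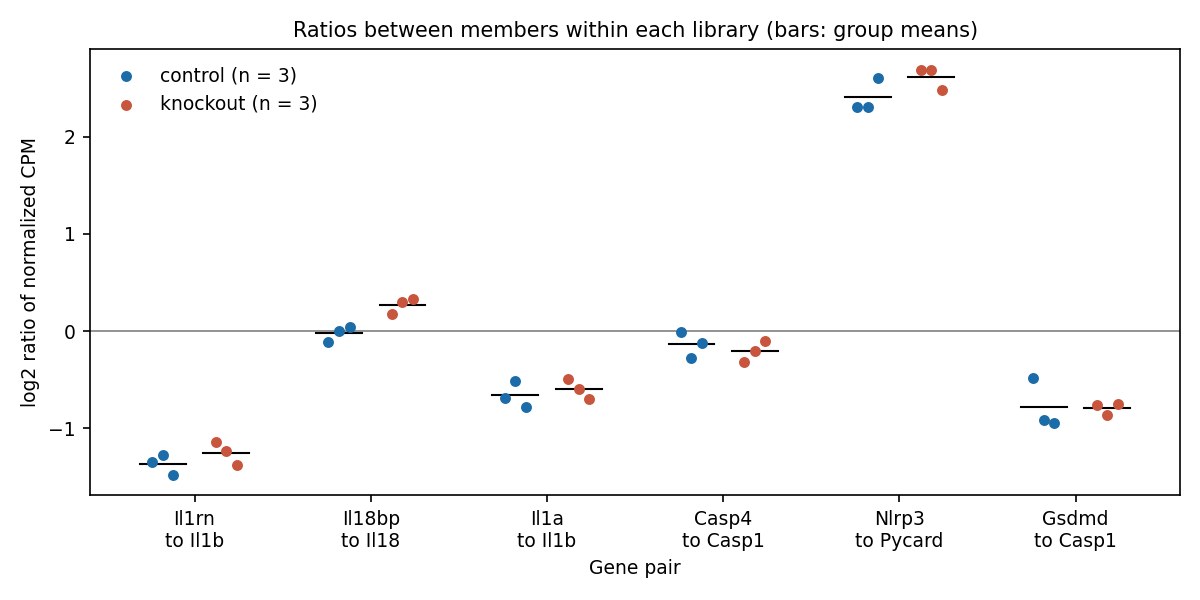
Log2 ratio of normalized CPM of 6 pairs of members in each library (control blue, knockout red, n = 3 each), with bars at group means. The groups are apart for Il18bp to Il18 and overlap for the other 5 pairs.

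Levels between genes were compared as RPKM, normalized counts per 1000000 and per 1000 bases of deposited length. The order in control libraries was Il1b (3378.5 ± 273 RPKM), Il1a (1436 ± 30.5), Il1rn (644 ± 9.27), Nlrp3 (204 ± 7.72), Casp1 (117 ± 17.0), Casp4 (111 ± 11.1), Pycard (73.0 ± 6.76), Gsdmd (57.3 ± 1.54), Il18 (29.3 ± 1.09) and Il18bp (17.8 ± 1.47; SD, n = 3). The order of the means was the same in knockout libraries. Neighbours in this order did not overlap within either group, except Casp1 and Casp4, which overlapped in both. Il1b thus stood 2.35-fold above Il1a, 5.25-fold above Il1rn and 189.5-fold above Il18bp in control libraries, on the RPKM scale. By mean RPKM over the 6 libraries, 99.9% of the genes in the table lay below Il1b, 99.7% below Il1a, 99.2% below Il1rn, 79.4% below Il18 and 72.3% below Il18bp. The 10 members together took 1.01% to 1.08% of all counts in each library.

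The wider pathway was described by 7 lists with 71 genes, of which 59 were measured, 3 of them under an older symbol matched by its RefSeq synonym. None of the 59 passed in edgeR's test with adjustment over the whole table, beside the 0.104% given above. At an unadjusted p under 0.05 there were 7 (11.9%, against 6.48% of all genes). Among the 7 were Il33, which reached the table only by its knockout values, and Prtn3, which is also in the neutrophil list. The lists were chosen with earlier results of these data known, so these shares are no test of the pathway. A higher mean in knockout libraries was seen for 37 and a lower one for 22, with a median log2 fold change of 0.031.

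Of 6 other IL-1 family ligands 3 were measured, all with a higher mean in knockout libraries and none that passed. Il36g, listed in the table as Il1f9 and encoding a ligand of the IL-36 receptor, had 4.78, 5.08 and 3.48 CPM for control and 6.81, 7.98 and 7.97 CPM for knockout. All knockout values were above all control values, as in either direction for 11.2% of all genes. Its log2 fold change was 0.76 (SE 0.20, 95% interval 0.34 to 1.18), with an unadjusted p of 0.0015 in edgeR's test and an adjusted p of 0.309. Il36a, listed as Il1f6 and encoding another ligand of that receptor, was at 0.46 from 2.74 CPM in control libraries (edgeR adjusted p = 0.856), and its groups overlapped. Il33, an alarmin of stromal and barrier cells, lay near the floor of the table, with 0.737 ± 0.245 CPM for control and 1.65 ± 0.644 CPM for knockout (SD, n = 3 each). Its log2 fold change was 1.18 (edgeR adjusted p = 0.588). It exceeded 1 CPM in 0 control and 3 knockout libraries, and thus reached the table only by its knockout values. Of the listed stromal markers 5 were measured. Col1a2 and Sparc also exceeded 1 CPM in 0 control and 3 knockout libraries. These genes had to be higher in knockout to be in the table, so their values are no measure of stromal cells. Postn (log2 fold change 0.41), Pdgfra (-0.078) and Pdgfrb (0.023) did not pass, and their groups overlapped. The part of such cells in the Il33 value was not tested.

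Of 8 receptor genes 4 were measured, with log2 fold changes above 0 for all 4 (median 0.12) and none that passed. Il1rap, the shared accessory chain, was at 0.16 (adjusted p = 0.876), Il18rap, the accessory chain for interleukin-18, at 0.077 (adjusted p = 0.968), and Il1r1, the signalling receptor, at 0.59 from only 1.17 CPM in control libraries (adjusted p = 0.861). The decoy receptor gene Il1r2 was not a row of the table. All 13 adaptors and kinases behind the receptors were measured, with 9 above 0 and 4 below (median 0.034). Traf6, a ubiquitin ligase, was at 0.17 (adjusted p = 0.859), Peli2 at 0.19 and the kinase gene Map3k7 at -0.10. The common adaptor Myd88 had 210.1 ± 1.57 CPM for control and 210.4 ± 2.10 CPM for knockout (SD, n = 3 each).

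Of 12 other inflammasome sensor genes 9 were measured, 5 above 0 and 4 below, with a median of 0.036. Mefv, which encodes pyrin, had the smallest p, with 43.2 ± 7.77 CPM for control and 56.7 ± 4.74 CPM for knockout (SD, n = 3 each). Its log2 fold change was 0.40 (edgeR adjusted p = 0.462). Nlrc4, the sensor partner of the NAIP proteins, was at 0.18 (adjusted p = 0.924) and Naip6 at -0.52 from 1.59 CPM (adjusted p = 0.894). Aim2, a sensor of cytosolic DNA, was at 0.079 (adjusted p = 0.957).

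Of 14 regulators 13 were measured, 6 above 0 and 7 below, with a median of -0.00073. The guanylate-binding protein gene Gbp2 had 5996 ± 604 CPM for control and 5670.1 ± 553 CPM for knockout (SD, n = 3 each), a difference of -0.081 on the log2 scale (edgeR adjusted p = 0.946). Nek7, which binds NLRP3, was at -0.027 and P2rx7, the ATP-gated channel, at -0.00073. The smallest p belonged to Fadd, an adaptor of death receptors (-0.65 from 3.19 CPM, adjusted p = 0.749), followed by Ripk3 (0.18) and Casp8 (-0.11). Of 10 genes of pyroptosis and protease processing 9 were measured, 5 above 0 and 4 below (median 0.028). Prtn3, a granule protease of neutrophil precursors that is also in the neutrophil list, was at 1.14 (adjusted p = 0.366) and Ninj1, which ruptures the membrane of dying cells, at -0.16 (adjusted p = 0.835).

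All 8 genes of priming receptors and feedback were measured, 5 above 0 and 3 below (median 0.018). Zc3h12a, an RNase that degrades cytokine messages, was at 0.28 (153 ± 17.8 CPM in control and 187 ± 26.8 in knockout libraries, SD, n = 3 each; edgeR adjusted p = 0.672). Tlr2, a receptor for bacterial lipopeptides, was at -0.21 (adjusted p = 0.749) and Cd14 at -0.11 (adjusted p = 0.909). Tlr4, the lipopolysaccharide receptor, was at 0.0067 and Nfkbia, the inhibitor that NF-kB induces, at 0.042.

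**Figure D4:**
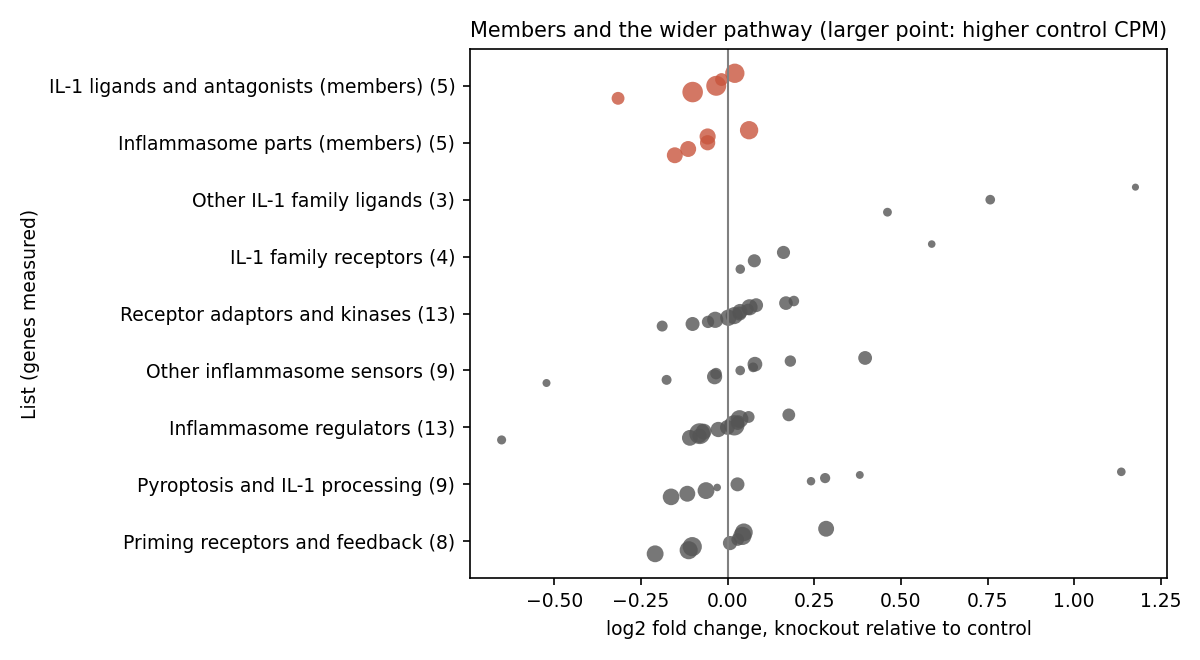
Log2 fold changes, knockout relative to control, of the members (red) and of the measured genes of 7 further lists (grey), 1 point per gene, with larger points for a higher control CPM. The members and the abundant genes lie near 0, and the points far from 0 are small, such as Il33 at 1.18, Prtn3 at 1.14 and Il36g (Il1f9) at 0.76.

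Genes with the most similar profile to a member were sought among 6860 genes with a mean above 10 CPM, by the root mean square difference of centred log2 CPM over the 6 libraries. For Il1b these were Gatm (0.012) and Sf3a3 (0.018), for Il1a Etf1 (0.015) and Eif4a1 (0.019), and for Nlrp3 Sfpq (0.0175) and Nckap1l (0.0179). For Il18 they were Card9 (0.035), an adaptor of innate signalling, and Il27 (0.041), a cytokine subunit. Il27 had a log2 fold change of -0.28 (edgeR adjusted p = 0.414). These are matches of 6 values picked from 6860 genes, and nothing further is read from them.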

How the data were processed

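Per the labels' protocols, the 6 libraries were run on an Ion Proton sequencer. The authors deposited unnormalized read counts per gene and a summed exon length in bases, another value that was used as deposited for RPKM. The submitters' processing notes list mm10, edgeR, STAR 2.4.2a, Subread 1.5.0 and featureCounts, with no role or order. Annotation and strand use are not given in the sources used here. In every row the third highest value exceeded 1 CPM, so the table looks filtered at that level.

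Counts were scaled by TMM and filtered with filterByExpr (minimum count 10, 0 genes removed). They were tested in edgeR 4.0.16 (R 4.3.3) by its two-sided quasi-likelihood test, with genotype as the only term, over all 10551 genes with Benjamini-Hochberg adjustment at 0.05. The SE is the log2 fold change divided by the root of its F statistic. Ratios were compared by exact permutation over 20 splits. The biological coefficient of variation was 10.7%.

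Members and lists were chosen with earlier results of these data known. Named are all members, the 3 genes of each further list with the smallest p, Dhps, Lyz2 and, for Il1a, Il1b, Il18 and Nlrp3, the 2 most similar genes. Myd88, Aim2, Gbp2, Nek7, P2rx7, Tlr4 and Nfkbia were chosen after their values were seen. Part of the genes chosen this way is not reported here. Alternatives were other or no size factors, 2 other filters, a replicate block, each library left out, DESeq2 1.42.0, limma-voom (limma 3.58.1), an adjusted p under 0.1, Lyz2 left out and, for ratios, a prior count of 2.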

Additional observations from a re-analysis of the deposited data

How the results depend on the processing

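The count of members called was 0 under every alternative run, and the smallest adjusted p of any member was 0.349, for Il18 with the replicate block. The number of all genes called was 11, and moved to 35 with the replicate block, 22 with DESeq2 and 7 with Lyz2 left out. With 1 library left out it ranged from 4 (without control library 2) to 19 (without control library 1), with 7 without control library 3. The cause was not tested. Deviations of same-numbered libraries from their group means correlated across genes with r of 0.139, 0.0195 and 0.148. For libraries with different numbers r ranged from -0.181 to 0.0548. The labels do not say that the numbers pair the libraries, so the main fit held no pairing. These r values do not settle whether they do. With 1 library left out the log2 fold change of 6 members, none of them called, ranged across 0: Il1a from -0.0645 to 0.0023, Il1rn from -0.0144 to 0.0652, Il18bp from -0.0906 to 0.0831, Casp1 from -0.174 to 0.023, Casp4 from -0.202 to 0.0153 and Gsdmd from -0.114 to 0.0113. Without size factors Il18bp was at 0.0047. The other 4 kept their sign under all of these alternatives, Il18 from -0.356 to -0.257 with 1 library left out. Its unadjusted p was 0.0554 without knockout library 1. The log2 ratio of Gsdmd to Casp1 ranged from -0.0931 to 0.139 with 1 library left out, and the other 5 ratios kept their sign. The replicate block changed the sign of no member and no ratio. Depth limits Il18, whose counting error of 5.58% is near its spread between libraries (3.73% and 6.96%). For Il18bp it was 5.34%, against a spread of 8.27% and 12.3%.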

Other observations

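Within the knockout group, library 1 held the lowest value of 8 of the 10 members and the highest value of the other two, Il1a and Il1rn. Over all genes it was the lowest of its group for 36.5% and the highest for 37.0%. Knockout library 3 held the highest value of 6 members, all of them among those for which library 1 was lowest, and the lowest of Il1a and Il1rn. In the control group, library 3 held the highest value of 6 members and the lowest of 1, Pycard. Il1a and Il1rn thus went against Il18, Il18bp, Casp4, Pycard, Gsdmd and Il1b between knockout libraries 1 and 3. Members are not replicates, and this pattern was noticed after the values were seen and was not tested.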
